A study of Mus musculus with 2 samples.

Results

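AP-1 is a dimeric transcription factor, and the 9 genes described here encode its classical FOS subunits (Fos, Fosb, Fosl1, Fosl2), its JUN subunits (Jun, Junb, Jund) and the related factors Batf and Atf3. They were chosen by symbol, with their counts and ratios in these same 2 libraries already known, from a table of 46095 genes, and all 9 passed a minimum of 20 counts over both libraries, as did 13363 genes in all. The series holds 2 RNA sequencing libraries from a mouse acute myeloid leukaemia (AML), made from leukaemia-initiating cells, as the labels call them, that were sorted from the marrow by surface Mac1 and c-Kit. Both came from C57BL/6 mice aged 8 weeks. One library carries the genotype label wild type and a title ending in Scr. The other carries the label P2x7-KO and a title ending in KD. P2x7 is an ATP-gated ion channel of the plasma membrane. How the leukaemia was made, how the gene was disrupted and whether cells of several mice were pooled are points that the sources used here do not state. With 1 library per group there is no replicate check on any difference, no test between genotypes was made, and every interval below covers counting error only.

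The proteins pair through leucine zippers and contact DNA with the basic stretch beside the zipper. JUN proteins can pair with each other or with FOS proteins, while FOS proteins need a partner of another kind. Fos, Fosb, Jun, Junb and Atf3 are immediate early genes: their transcripts appear soon after growth factors, cytokines or cell stress activate MAP kinases, and they are short-lived. In myeloid cells AP-1 dimers are known for work in monocyte and macrophage differentiation.

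The libraries were of nearly equal depth, with 12456212 counts in the wild-type-labelled one and 12435916 in the P2x7-KO-labelled one. P2rx7, which encodes P2x7, went against the label, with 229 and 543 counts, or 18.8 and 42.6 CPM, 2.27-fold higher in the P2x7-KO-labelled library (1.94 to 2.66). The gene came under 2-fold but stayed higher once transcript length (log2 ratio 0.88) or length and GC content (0.91) were adjusted for. The directions given here are therefore those of the libraries as labelled. All 11 myeloid progenitor markers were detected in both, with sums of 6484 and 6558 CPM. Itgam, which encodes a chain of Mac1, was the only one called, 2.90-fold higher (2.77 to 3.05), and Kit stood at 1.47-fold (1.32 to 1.64). Of all genes counted, 10.8% were called at least 2-fold higher and 8.95% lower.

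The stretches just before the transcription starts show what these genes share and where they differ in sequence, a feature that played no part in choosing them. They come from RefSeq (GRCm38.p6, the assembly called mm10), run 5′ to 3′ on the strand of the gene, and carry motif matches in capitals. Fos, whose product is the prototype FOS subunit, lies on the plus strand (chr12:85473740-85473889):
Fos: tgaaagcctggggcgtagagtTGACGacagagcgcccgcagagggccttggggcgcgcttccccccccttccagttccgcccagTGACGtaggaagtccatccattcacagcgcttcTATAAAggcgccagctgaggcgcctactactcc
Jun, the prototype JUN subunit gene, lies on the minus strand (chr4:95052223-95052372):
Jun: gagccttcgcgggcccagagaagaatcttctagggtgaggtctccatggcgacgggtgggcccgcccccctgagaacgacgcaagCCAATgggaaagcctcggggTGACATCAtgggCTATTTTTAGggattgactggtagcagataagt
Fosb lies on the minus strand (chr7:19310046-19310195) and Atf3 also on the minus strand (chr1:191183334-191183483):
Fosb: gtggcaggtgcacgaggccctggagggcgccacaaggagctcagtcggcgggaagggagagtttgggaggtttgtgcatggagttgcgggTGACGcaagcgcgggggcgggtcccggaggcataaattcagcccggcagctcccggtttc
Atf3: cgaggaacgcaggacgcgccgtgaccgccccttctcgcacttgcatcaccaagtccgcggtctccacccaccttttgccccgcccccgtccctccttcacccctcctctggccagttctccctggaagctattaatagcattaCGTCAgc
Junb lies on the minus strand (chr8:84978749-84978898). Batf, shown as a member whose level differed little between the libraries, lies on the plus strand (chr12:85686570-85686668), and its stretch stops before the first exon in GENCODE:
Junb: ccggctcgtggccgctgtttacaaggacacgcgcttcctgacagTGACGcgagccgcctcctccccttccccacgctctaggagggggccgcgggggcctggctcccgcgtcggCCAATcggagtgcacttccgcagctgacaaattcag
Batf: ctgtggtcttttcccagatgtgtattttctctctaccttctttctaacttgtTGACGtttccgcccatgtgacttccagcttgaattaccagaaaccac

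The motifs were searched on both strands in windows of 300 bases, from 250 before to 50 after each start, for the 8 members that the promoter table holds, with Fosl1 not among them. TGACG, the core of the CREB and ATF site, occurred in 5 of the 8 windows (Fos, Fosb, Junb, Batf and Atf3) and in 20.8% of 32851 promoter windows. In Fos it began at -66 and again at -129 from the start, and in Fosb at -60. In Junb it began at -106, and in Atf3 its reverse complement CGTCA at -7. The Jun window held TGACATCA, a variant of the AP-1 site, at -45, and an A/T-rich MEF2 motif at -33. Those matches occurred in 3.62% and 0.11% of all windows. CCAAT was found in the Jun (-65), Junb (-36) and Atf3 windows against 37.4% of all, and TATAAA in Fos (-33) and Junb against 13.6%. The Atf3 match, the reverse complement ATTGG at 6, and the Junb TATAAA at 1 lie after the start, outside the printed stretches. The full sites TGACTCA (5.2% of all windows) and TGACGTCA (1.79%, which contains TGACG) and the CArG box bound by serum response factor (1.63%) were in 0 of the 8 windows. Sequence more than 250 bases before a start was not searched, so these figures say nothing of sites further out. The RefSeq table places the Jund start 1210 bases before the nearest GENCODE start, and that window is not printed. The Fosl2 window lies within transcribed sequence in GENCODE and is not printed either. The Atf3 window stands before a start inside the gene, whose GENCODE span reaches 191218039 on the minus strand. Sequence before the outermost Atf3 start was not searched.

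Of the 9 AP-1 genes, 6 stood at least 2-fold lower in the P2x7-KO-labelled library, 0 stood at least 2-fold higher and 3 did neither. The 6 were Jun, Junb, Jund, Fos, Fosb and Atf3. A gene was called when its ratio of scaled counts was 2 or more in either direction and the exact 95% counting interval left out a ratio of 1. By the same rule 8.95% of the 13363 genes counted were lower and 10.8% higher. Of the 9, 8 had a ratio under 1, as had 49.8% of all genes counted. Among the 5444 genes with 1000 or more counts over both libraries, where counting error is small, 4.94% were lower and 6.50% higher. Of the members, 6 were that abundant, and 5 of these were lower, Fosl2 being the exception. The median log2 ratio of the 9 was -1.31, beside 0.005 over all genes counted. The median of the 9 was -0.63 with length and GC content adjusted for, beside -0.03 over all genes with a length. The genes were listed with earlier results of these data in view, so these counts are a description.

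The 9 genes together held 64605 counts in the wild-type-labelled library and 22289 in the P2x7-KO-labelled library. On the CPM scale (counts per library total of 1000000, scaled between the libraries by the TMM method) that was 5310.9 and 1750.35 CPM, 3.03-fold lower in the latter (2.99 to 3.08). They took 0.519% of all counts in the first library and 0.179% in the second. Without Jun, the member with the most counts, the sum of the other 8 was 2.74-fold lower (2.69 to 2.79). These sums were not adjusted for length or GC content. Few cells with high AP-1 transcript and many cells with a little cannot be told apart in such bulk RNA, nor can fewer cells of a type and less RNA per cell.

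**Figure D1:**
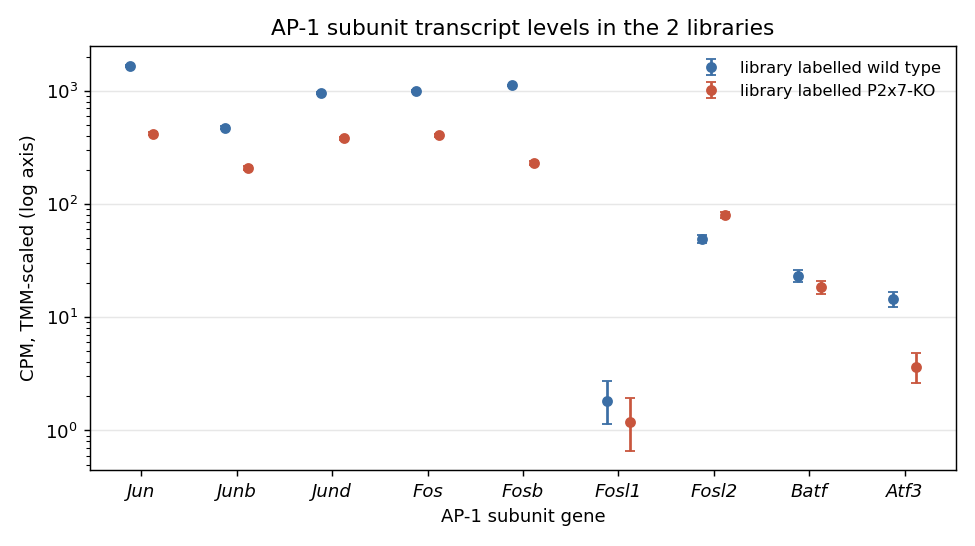
Level of each AP-1 subunit gene in CPM (log axis) in the wild-type-labelled library (blue) and the P2x7-KO-labelled library (red), with exact 95% Poisson intervals. Jun, Junb, Jund, Fos, Fosb and Atf3 are lower in the second library, Fosl2 is higher at 80.6 against 49.1 CPM, and the intervals of Batf and of Fosl1 overlap between the libraries.

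Among the JUN genes, Jun had the largest difference. Jun, whose product pairs with every FOS protein, lies on chromosome 4 from 95049034 to 95052222 on the minus strand (mm10, GENCODE M21) and has 1 exon. It had 20239 counts in the wild-type-labelled library, 1664 CPM (95% interval 1641 to 1687), and 5326 counts in the P2x7-KO-labelled library, 418 CPM (407 to 430). It was thus 3.98-fold lower in the latter (3.86 to 4.10). By count Jun ranked 45 among all genes counted in the first library and 322 in the second.

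Junb, whose product is a weaker activator that can oppose JUN in growth control, lies on chromosome 8 from 84974484 to 84978718. It had 5769 and 2660 counts, or 474 and 209 CPM, and was 2.27-fold lower in the P2x7-KO-labelled library (2.17 to 2.38). Jund, the JUN gene known for steady expression in resting cells, lies on the same chromosome from 70698949 to 70700616. It had 11710 and 4859 counts, or 963 and 382 CPM, and was 2.52-fold lower (2.44 to 2.61). The difference of Jun was thus larger than that of either other JUN gene by more than counting error. There were 0.285 Junb counts per Jun count in the first library (0.277 to 0.294) and 0.499 in the second (0.477 to 0.523). The same quotient for Jund was 0.579 (0.566 to 0.592) and 0.912 (0.877 to 0.949).

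The FOS genes did not all stand on the same side. Fosb, which also encodes the shortened splice form ΔFosB that these gene counts do not separate, lies on chromosome 7 from 19302696 to 19310051. It had 13586 counts in the wild-type-labelled library, 1117 CPM (1098 to 1136), and 2946 in the P2x7-KO-labelled library, 231 CPM (223 to 240). Its level was 4.83-fold lower in the latter (4.64 to 5.03), the largest difference of the 9. Of all genes counted, 1.89% were at least 4-fold lower.

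Fos, on chromosome 12 from 85473890 to 85477273, had 12223 and 5176 counts, or 1005 and 406 CPM, and was 2.47-fold lower (2.39 to 2.55). Fosb had more counts than Fos in the wild-type-labelled library, with a quotient of 1.11 (1.08 to 1.14). In the P2x7-KO-labelled library it had fewer, with a quotient of 0.569 (0.544 to 0.596). Fos and Jund, by contrast, kept nearly the same proportion of counts. There were 0.958 Jund counts per Fos count (0.934 to 0.983) in the first library and 0.939 (0.903 to 0.976) in the second. Adjusted for length and GC content, however, the log2 ratio was -1.13 for Fos and -0.63 for Jund.

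Fosl2 stood the other way. This gene encodes FRA2, a FOS protein without the strong activation domain of FOS, and lies on chromosome 5 from 32135801 to 32157842. It had 597 counts in the wild-type-labelled library, 49.1 CPM (45.2 to 53.2), and 1026 in the P2x7-KO-labelled library, 80.6 CPM (75.7 to 85.7). It was 1.64-fold higher in the latter (1.48 to 1.82), under the 2-fold rule. With a 1.5-fold rule it was called higher, beside 21.1% of all genes counted, and 18.9% were lower by that rule. For each Fosb count there were 0.0439 Fosl2 counts in the first library and 0.348 in the second.

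Fosl1 encodes the related FRA1 and lies on chromosome 19 from 5447547 to 5455946. It was scarce in both libraries, with 22 and 15 counts, or 1.81 and 1.18 CPM. Its ratio of 0.651 had an interval from 0.314 to 1.31, so a difference was not detectable at this depth.

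Atf3 and Batf, the members outside the FOS and JUN families, were of low abundance. Atf3, a stress-induced factor that often represses its targets, lies on chromosome 1 from 191170296 to 191218039. It had 176 counts in the wild-type-labelled library and 46 in the P2x7-KO-labelled library, or 14.5 and 3.61 CPM, and was 4.01-fold lower in the latter (2.88 to 5.67). Batf, a small factor without an activation domain that pairs with JUN proteins and binds beside IRF4 and IRF8 in lymphocytes and dendritic cells, lies on chromosome 12 from 85686669 to 85709087. It had 283 and 235 counts, or 23.3 and 18.5 CPM, and was 1.26-fold lower (1.06 to 1.51), which is under the 2-fold rule.

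**Figure D2:**
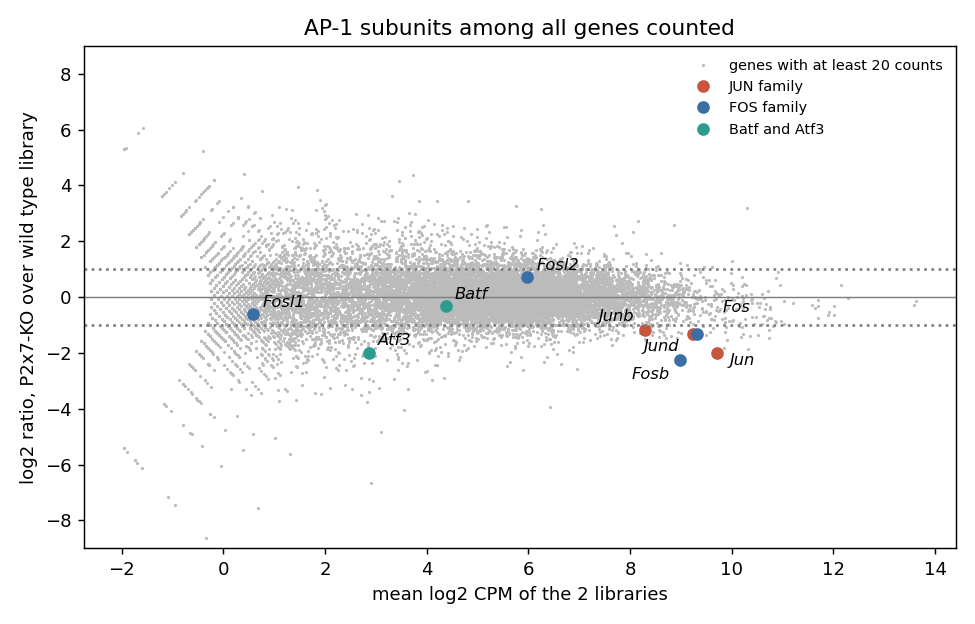
Each grey point is 1 of the 13363 genes counted, by its mean log2 CPM in the 2 libraries and its log2 ratio of the P2x7-KO-labelled library over the wild-type-labelled library (0.5 added to each count), with dotted lines at 2-fold. Jun, Fosb, Fos, Jund and Junb lie below the lower line at the right, among abundant genes, Atf3 lies below it at lower abundance, and Fosl2 is the only member above 0.

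Abundance differs strongly among the 9, and can be set side by side only per length. In CPM per kb of merged exon, the level in the wild-type-labelled library was 577 for Jund, 522 for Jun, 427 for Fos, 206 for Junb and 179 for Fosb. Batf followed at 16.5, Atf3 at 6.72, Fosl2 at 5.07 and Fosl1 at 0.890. In the P2x7-KO-labelled library the order at the top was Jund at 229, Fos at 173, Jun at 131, Junb at 90.8 and Fosb at 37.1 CPM per kb. Jun thus stood above Fos per length in the first library and below it in the second. Lower down, Fosl2 stood at 8.32 and Atf3 at 1.68 CPM per kb in the second library. Parts of this order depend on the length used. Per kb of the longest transcript, Fosb (13.6% of the pool) stood above Junb (12.1%) and Fosl2 (0.345%) just above Atf3 (0.336%) in the wild-type-labelled library. By that measure too, Jun stood above Fos in the first library and below it in the second.

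In counts not adjusted for the fit on length and GC content, the makeup of the AP-1 pool moved within families more than between them. Shares after that adjustment were not computed, and they could differ, since it changed some members more than others. The log2 ratio went from -1.18 to -0.58 for Junb and from -1.34 to -0.63 for Jund. For Jun it went from -1.99 to -1.82 and for Fos from -1.31 to -1.13. JUN genes held 67.3% of the pool per length in the wild-type-labelled library and 65.9% in the P2x7-KO-labelled library. FOS genes held 31.5% and 32.0%. By plain counts the JUN share was 58.4% (58.0 to 58.8) and 57.6% (57.0 to 58.3). The FOS share was 40.9% (40.5 to 41.3) and 41.1% (40.5 to 41.8). Both pairs of Clopper-Pearson intervals overlap, which does not by itself show that a share stayed the same. Within the families the shares moved by more than counting error: Jun went from 31.3% of counts (31.0 to 31.7) to 23.9% (23.3 to 24.5), and Fosb from 21.03% (20.7 to 21.3) to 13.2% (12.8 to 13.7). Jund went from 18.1% (17.8 to 18.4) to 21.8% (21.3 to 22.3). Fosl2 went from 0.924% to 4.603%.

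**Figure D3:**
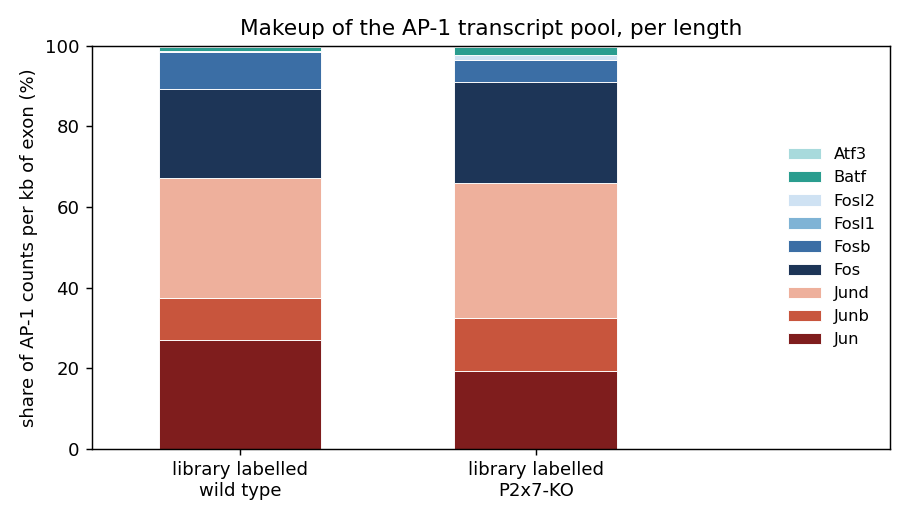
Stacked bars give the share of each AP-1 gene in the summed counts per kb of merged exon, in percent, for the wild-type-labelled library (left) and the P2x7-KO-labelled library (right). Reds are JUN genes, blues FOS genes and greens Batf and Atf3. The JUN block ends at 67.3% on the left and 65.9% on the right, while the Jun share inside it is 26.9% and 19.2%.

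Length, base composition and gene structure differ among the members, and the ratios of all genes moved with them. With a smooth fit of the log2 ratio on transcript length and GC content over 12374 genes, 4 of the 9 stayed at least 2-fold lower, namely Jun, Fos, Fosb and Atf3, beside 5.91% of genes lower by the same rule. None was higher, beside 7.73%. The adjusted log2 ratios were -2.17 for Fosb, -1.82 for Jun, -1.80 for Atf3 and -1.13 for Fos. Junb and Jund came under 2-fold, with log2 ratios of -0.58 and -0.63 after the adjustment in place of -1.18 and -1.34. Their longest transcripts hold 62.6% and 67.1% GC, the highest of the 9, against 51.9% for Fos. With length alone adjusted for, 5 of the 9 stayed lower, beside 6.25% of genes, with 8.02% of genes higher, and Junb did not, at -0.97. Batf changed sign, from -0.33 to 0.09 after length and 0.25 after length and GC content. Fosl2, with the longest transcript of the 9 at 6537 bases, came down from 0.72 to 0.39 after adjustment for both.

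**Figure D4:**
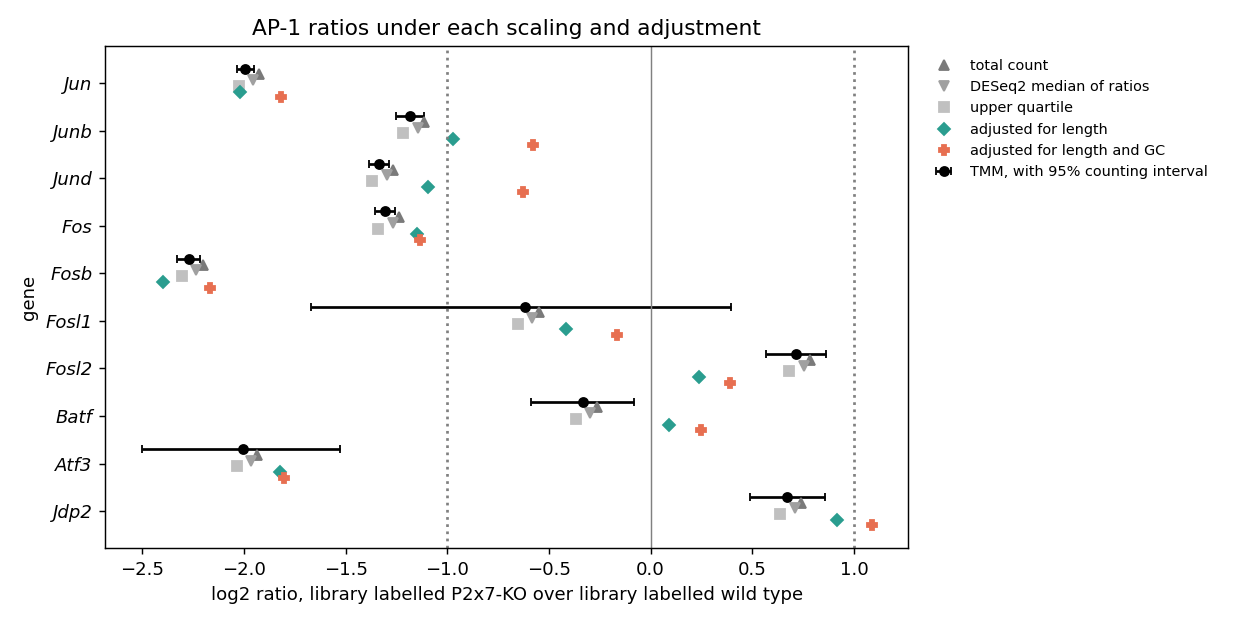
Log2 ratio of each AP-1 gene and of Jdp2 under the TMM scaling with its 95% counting interval (black), under other scalings (grey) and after adjustment for transcript length (green) and for length and GC content (orange), with dotted lines at 2-fold. Jun, Fos, Fosb and Atf3 stay left of the lower line in all settings drawn, and Junb and Jund move to -0.58 and -0.63 with the last adjustment.

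The 3 JUN genes have a single exon. Of 635 protein-coding genes counted whose longest transcript has 1 exon, 17.8% were at least 2-fold lower and 6.3% higher, with a median log2 ratio of -0.18. Over all 10914 protein-coding genes counted the shares were 6.98% and 10.5%, with a median of 0.04. The part of gene structure in the JUN values was not tested beyond these figures.

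Many immediate early transcripts carry AU-rich elements in the 3′ UTR, which speed their decay. In the coding transcript with the longest coding sequence, the pentamer ATTTA occurred 4 times in the 3′ UTR of Fos, 4 times in Jun, 3 in Atf3, 2 in Junb and 8 in Fosl2, whose UTR is 4653 bases long. It occurred once in Fosb, Jund and Fosl1 and 0 times in Batf. The stronger nonamer, in capitals, was found in 2 members, shown here with 8 bases on either side:
Fos site: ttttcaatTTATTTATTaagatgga
Fosl2 site: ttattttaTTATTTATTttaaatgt
These 2 genes stood in opposite directions, Fos lower and Fosl2 higher in the P2x7-KO-labelled library. Of the 766 genes counted whose 3′ UTR holds the nonamer, 5.09% were at least 2-fold lower and 17.2% higher, against 7.06% and 9.84% of the 9961 without it. Genes with it have longer 3′ UTRs, with a median of 2228 against 877 bases.

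Most of the neighbouring and overlapping genes examined were not called, and 3 were: Fam71a and Gm25432 lower and Mysm1 higher. Over all genes counted 8.95% were lower and 10.8% higher by the same rule, and so few calls are not set apart from those shares. Any link of these 3 to the members beside them was not tested. Fam71a, 5.479 kb from Atf3 and on the same strand, had 33 counts in the wild-type-labelled library and 0 in the other, the same direction as Atf3. The small nucleolar RNA gene Gm25432 beside Fosl1 was lower, at 186 against 65 counts (ratio 0.334, 0.248 to 0.445). Mysm1, 69.9 kb from Jun, was 2.12-fold higher (1.85 to 2.43), the direction opposite to Jun. Jdp2 lies between Fos and Batf on chromosome 12, 122 kb from the former and 46.8 kb from the latter. It encodes a JUN partner that represses AP-1 sites. Jdp2 had 390 counts in the wild-type-labelled library and 650 in the P2x7-KO-labelled library, or 32.1 and 51.04 CPM, 1.59-fold higher in the latter (1.40 to 1.81), and 2.12-fold with length and GC content adjusted for. Along this stretch Fos was thus lower, Jdp2 higher and Batf little different. Vasp, the nearest gene counted on one side of Fosb, was 1.20-fold higher and Ercc1 on its other side 1.90-fold lower. The antisense gene Junos overlaps Jun and had 49 and 32 counts, few beside those of Jun. Prdx2, a peroxiredoxin gene that overlaps Junb, had 1199 and 651 counts and was 1.93-fold lower. Ccdc85b overlaps Fosl1 and had 375 and 253 counts. Whether reads were counted by strand is not stated, and reads in these overlaps cannot be told apart.

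Other bZIP genes that can pair or compete with AP-1 stood mostly at similar or higher levels in the P2x7-KO-labelled library. Of 15 listed, 13 had at least 20 counts, of which 2 stood at least 2-fold higher and 1 lower, and their median log2 ratio was 0.42. For all genes counted the shares were 10.8% higher and 8.95% lower. Bach1, a haem-sensitive repressor gene, stood at 39.9 against 91.3 CPM, 2.29-fold higher (2.06 to 2.55). Bach2 had 4 against 21 counts, a ratio of 5.02 (1.69 to 20.1). With length and GC content adjusted for, 3 were higher and 0 lower, beside 7.73% and 5.91% of genes with a length. Batf2, with 20 against 38 counts, had a ratio of 1.82 (1.03 to 3.29), under the 2-fold rule. Batf3 had 0 against 2 counts, and neither count reaches the detection limit of 3.

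Among kinase cascade genes that lead to AP-1 induction, 0 were called lower, though 7 of those counted had ratios under 1. Of 29 genes of the MAP kinase cascade counted, 4 were at least 2-fold higher and 0 lower, with a median log2 ratio of 0.37. The shares of all genes counted were 10.8% higher and 8.95% lower. Map3k2 (3.23-fold, 2.77 to 3.79), Map3k8 (3.33-fold, 2.34 to 4.84) and Map3k1 (2.34-fold, 2.17 to 2.52), which encode kinases at the top of the cascade, led the higher ones. With length and GC content adjusted for, 1 of the 29 was higher, 0 were lower and the median was 0.17. The shares of all genes with a length were then 7.73% higher and 5.91% lower. Of 21 genes for serum response factor, its ternary complex partners, CREB factors and their coactivators, 5 were higher and 0 lower, and the median was 0.61. Elk4, a ternary complex factor gene, stood at 12.8 against 40.4 CPM (3.15-fold, 2.63 to 3.79). Mef2a, whose product binds the MEF2 motif, was 2.52-fold higher (2.26 to 2.81), and the acetyltransferase gene Ep300 2.19-fold (2.06 to 2.33). After the same adjustment 1 of the 19 with a length was higher and 0 lower, with a median of 0.21.

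Some feedback genes of the same pathway also stood lower. Of 7 MAP kinase phosphatase genes counted, 3 were lower, 0 higher and 4 neither, and 2 of the 7 had ratios above 1. By the same rule 8.95% of all genes counted were lower. Their median log2 ratio was -0.47, and -0.83 with length and GC content adjusted for. Dusp2 stood at 228 against 43.6 CPM, 5.23-fold lower (4.77 to 5.74). Dusp1 was 2.33-fold lower (2.23 to 2.43) and Dusp5 2.51-fold (1.98 to 3.21). With length and GC content adjusted for, 2 of the 7 were lower, as Dusp1 came to a log2 ratio of -0.99. Of genes with a length, 5.91% were then lower.

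Of 15 genes for the turnover of AP-1 proteins and messages, 2 were lower and 1 higher, with a median of 0.002. Over all genes counted 8.95% were lower and 10.8% higher. Trib1, a pseudokinase gene that directs the COP1 ligase, had 315 against 34 counts and was 9.70-fold lower (6.80 to 14.3). Zfp36, whose product binds AU-rich elements and promotes decay, stood at 1176 against 541 CPM, 2.17-fold lower (2.11 to 2.24), but at a log2 ratio of -0.95 with length and GC content adjusted for. Itch, a ubiquitin ligase gene that acts on JUN proteins, was 2.11-fold higher (1.94 to 2.30) and at 0.54 on the log2 scale after that adjustment.

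Immediate early genes outside AP-1 also stood lower as a group. Of 27 counted, 12 were at least 2-fold lower and 2 higher, beside 8.95% and 10.8% of all genes counted. Their median log2 ratio was -0.66. With length and GC content adjusted for, 9 were lower and 3 higher, beside 5.91% and 7.73% of genes. Plk2, a polo-like kinase gene, had 161 against 17 counts (9.91-fold lower, 6.00 to 17.4). Egr1, a zinc finger factor gene, had 1804 against 305 (6.19-fold lower, 5.48 to 7.01), and Plk3 502 against 98 (5.36-fold lower, 4.31 to 6.73). The clock gene Per1 was 2.36-fold higher (2.18 to 2.56), and Socs3 had 7 against 19 counts, a ratio of 2.59 (1.04 to 7.30).

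Genes often named as AP-1 targets in textbooks showed little of this difference. Of 16 counted, 1 was at least 2-fold lower and 0 higher, beside 8.95% and 10.8% of all genes counted. Their median was 0.31. The lower one was the chemokine gene Cxcl2, with 81 against 27 counts (3.14-fold, 2.01 to 5.05). With length and GC content adjusted for, 2 were higher and 1 lower, beside 7.73% and 5.91% of genes with a length. The list was drawn from many tissues, and 8 of its 24 genes had fewer than 20 counts here.

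**Figure D5:**
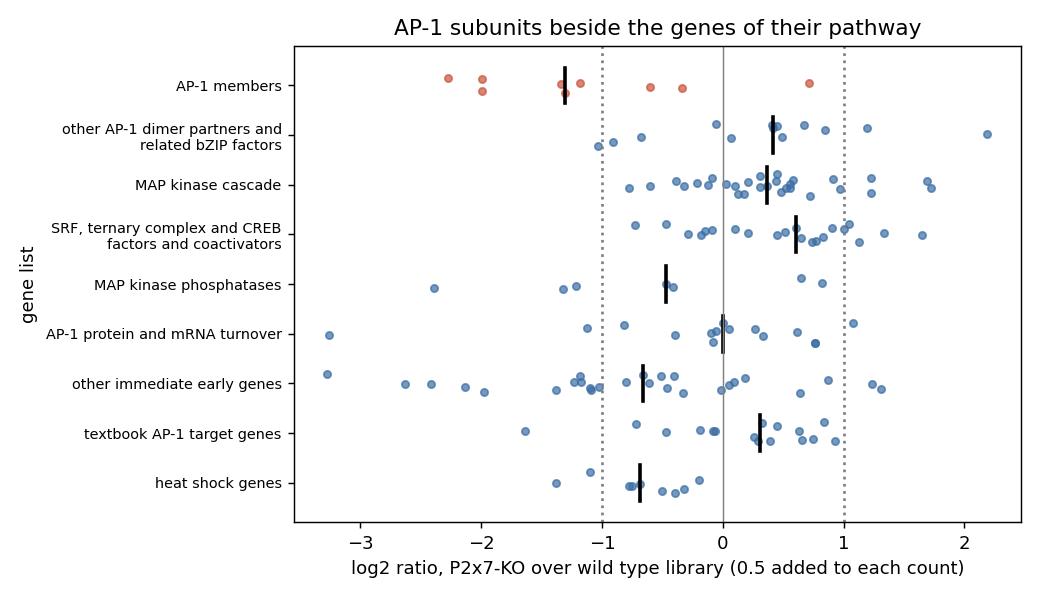
Log2 ratio of each gene with at least 20 counts (0.5 added to each count) for the AP-1 members (red) and for the lists of their pathway and the heat shock genes (blue), with black bars at the medians and dotted lines at 2-fold. The medians run from -1.31 for the AP-1 members to 0.61 for the serum response factor and CREB list, without adjustment. Adjusted for both length and GC content, the medians of the heat shock genes and the MAP kinase phosphatases (both -0.83) lie below that of the AP-1 members (-0.63).

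Heat shock genes and cell type markers also differed between the libraries. Whether they reflect handling, other cells or the leukaemia cells themselves was not tested, nor was their part in the AP-1 values. Of 12 heat shock genes listed 9 were counted, and all 9 lay below equality, at log2 ratios from -1.38 to -0.20. In the P2x7-KO-labelled library 2 of the 9 were at least 2-fold lower, beside 8.95% of all genes counted. Their median was -0.68. Adjusted for length and GC content, 4 of the 9 were lower, beside 5.91% of genes with a length. The median was then -0.83, below the -0.63 of the AP-1 genes in the same fit. The 2 called without adjustment were Hspe1 (2.61-fold, 2.39 to 2.85) and Dnajb1 (2.14-fold, 1.99 to 2.30). Of 13 monocyte and macrophage markers 8 were higher and 1 lower, and their summed level was 2486 and 5284 CPM. Over all genes counted 10.8% were higher and 8.95% lower, the shares to set beside each marker list. F13a1 led, at 6.65-fold (6.28 to 7.05), with Fn1 at 5.95-fold (5.69 to 6.22). Of 11 neutrophil markers 2 were higher (Mmp8 and Olfm4) and 2 lower (S100a8 and Retnlg), with sums of 3913 and 4021 CPM. Mast cell and basophil markers summed to 521 and 112 CPM, with Cpa3 15.2-fold (13.4 to 17.2) and Hdc 11.6-fold lower (7.63 to 18.4), the other 3 of 5 not called and Fcer1a at 0 in both.

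The remaining marker lists were near the detection limit in many genes. By the same rule 10.8% of all genes counted were higher and 8.95% lower. Erythroid markers summed to 1.32 and 11.2 CPM, with 2 of 2 counted higher: Hbb-bs had 1 against 58 counts and Hba-a1 2 against 41. B lymphoid markers summed to 132 and 99.3 CPM, with Jchain and Igkc higher and Ighm lower of 4 counted. T and NK markers summed to 35.2 and 13.4 CPM, with Il7r and Nkg7 lower of 2 counted and Trac and Ncr1 at 0. Dendritic cell markers summed to 834 and 928 CPM, with Siglech and Cd74 higher of 5 counted and H2-Aa at 0. Megakaryocyte markers summed to 41.3 and 16.6 CPM, with Vwf higher and Itga2b lower of 2 counted, and Pf4, Ppbp and Gp1ba at 0. Stromal and endothelial markers summed to 369 and 192 CPM, with Cxcl12 higher and Pecam1 lower of 3 counted. A gene at 0 may lie anywhere up to 0.247 CPM in the wild-type-labelled library and 0.236 CPM in the other.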

How the data were processed

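The deposited table gives raw counts per gene for 2 libraries. The submitters' processing notes name HISAT2 2.0.4 and mm10. The program that counted reads, with its annotation and strand setting, was not given in the sources used here. Of its value columns 0 were left out, and 0 rows name no gene. Counts were scaled with TMM in edgeR 4.0.16 (R 4.3.3). Ratios carry exact conditional 95% intervals from the Clopper-Pearson method and CPM values exact Poisson ones (scipy 1.17.1). Reads are not independent molecules, so intervals cover counting error only. Lengths, GC content and coordinates came from GENCODE M21 (mm10) by symbol, found for 92.6% of the genes counted. The adjustments are additive smooth fits (mgcv 1.9.3). The interval and call were tested on simulated data.

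The members and the 19 gene lists were chosen with earlier results of these data known. All members are named, and from each pathway list up to 3 called genes per direction by the nearer interval bound, from each marker list up to 2 and those at 0 in both libraries. A few genes that this rule would name are not reported here. The motifs, AU-rich elements and neighbours were chosen after values were seen. Alternatives were other scalings, thinning, adjustments, count minimums and call rules.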

Additional observations from a re-analysis of the deposited data

How the results depend on the processing

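The count of 6 AP-1 genes lower was the same under total count, DESeq2 1.42.0 and upper quartile scaling, TMM without ribosomal protein and mitochondrial genes, thinning to equal totals, count minimums of 1, 10 and 100, 2 added to each count, a 1.5-fold rule and an interval that leaves out 2-fold itself. It was 5 after adjustment for length and 4 after length and GC content. The count of members higher was 0 in all of these except the 1.5-fold rule, which called 1, Fosl2. The summed log2 ratio of -1.60 ranged from -1.63 to -1.45 over the other scalings and without Jun. It was not computed under thinning or with length or GC content adjusted for, so this range does not cover those settings. Per kb of the longest transcript, an alternative chosen after seeing the data, the FOS share fell by 0.949 percentage points in the library labelled P2x7-KO, where it was 0.427 higher per merged exon. Of 13363 genes counted, 1196 were lower and 1447 higher. Of the 12374 with a length, 773 were lower after length, and 731 lower and 956 higher after length and GC content. A minimum of 100 counts, which leaves fewer genes, gave 704 lower. The 1.5-fold rule gave 2521 lower and 2825 higher, and the interval past 2-fold 529 and 724. No paired analysis was possible because each group holds 1 library. Fosl1, Batf2 and Batf3 are limited by their counts.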
